A study of Macaca mulatta with 24 samples.

Results

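TNF and 9 chemokines were followed in whole blood of rhesus macaques (Macaca mulatta) before and after total-body irradiation. The chemokines were CXCL8 (interleukin-8), CXCL10, CXCL16, CCL2, CCL3, CCL5, CXCL1, CXCL9 and CXCL11. Members were every probe, other than control spots, whose gene name in the scanner files was one of these 10 symbols, and the rule for taking probes uses no measured level, although the symbols were picked with earlier results of these data known. They came to 18 probes, among 43603 probes that carry 14817 gene names. Of the 18 probes, 13 were well above the background of the array on at least 4 of the 24 arrays and were tested, and they stand for 7 genes. CCL2, CXCL9 and CXCL11 had no tested probe, and probe 2 of CXCL16 and probe 5 of CCL5 were also too dim.

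The arrays were 24 one-colour Agilent expression arrays, each of 1 blood sample. There were 7 pre-irradiation arrays (day 0 in the labels, 4 from males and 3 from females), 4 arrays of day 3 (3 males, 1 female), 6 of day 5 (4 males, 2 females) and 7 of day 7 (4 males, 3 females). Animals of every later group had received a total-body dose of 4 Gy, and the labels give no other treatment and no age. The study asked which blood transcripts change in the days after such an exposure. Replicate numbers were taken to mark animals, so that day 3 holds replicates 1, 2, 4 and 7 and day 5 lacks replicate 5. No unirradiated animals sampled on days 3 to 7 were analysed here, so irradiation and the passage of time or repeated bleeding cannot be told apart. Blood is a mixture whose cell numbers change after irradiation, and in such samples fewer cells of a type and less RNA per cell cannot be told apart.

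TNF is a cytokine made mainly by activated monocytes and macrophages, released from the cell surface by the protease ADAM17, and it acts through the receptors TNFRSF1A and TNFRSF1B. Chemokines are small secreted proteins that guide leukocytes through G-protein-coupled receptors. CXCL1 and CXCL8 draw neutrophils through CXCR1 and CXCR2. CXCL9, CXCL10 and CXCL11 are induced by interferon and draw activated T and NK cells through CXCR3, CXCL16 is a membrane-bound ligand of CXCR6, and CCL2, CCL3 and CCL5 draw monocytes and lymphocytes.

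All probes were 60 bases long. The file annotation places 17 of the 18 on the rhesus build rheMac2, with TNF on chromosome 4, the CXC genes other than CXCL16 on chromosome 5 (5 genes, 7 probes), and CXCL16 with the CC genes on chromosome 16 (4 genes, 9 probes). For 8 probes the stretch of genome is longer than the probe, so its letters are split over that stretch. No gene models of this build were used here, so exons are not named. The probes behind the called or largest differences of TNF, CXCL10, CXCL16 and CXCL1 are shown first. They lie at chr4:31212287-31212346 (plus strand), chr5:53564818-53565314 (plus), chr16:4519149-4522120 (minus) and chr5:55808126-55808185 (minus).
TNF: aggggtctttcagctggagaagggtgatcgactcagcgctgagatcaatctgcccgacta
CXCL10 probe 2: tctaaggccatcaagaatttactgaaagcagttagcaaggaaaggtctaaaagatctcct
CXCL16 probe 1: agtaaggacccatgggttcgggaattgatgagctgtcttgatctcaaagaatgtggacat
CXCL1: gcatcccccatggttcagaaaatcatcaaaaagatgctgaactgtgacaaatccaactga

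The CCL3 and CCL5 probes are shown because several probes of 1 gene overlap and are not independent readings. Capitals mark the longest run of letters that both probes of a gene hold, which is 11 bases for the CCL3 pair and 28 bases for the CCL5 pair. CCL3 probe 1 lies at chr16:31376988-31377047 (minus strand) and CCL3 probe 2 has no genome position in the annotation. CCL5 probe 1 lies at chr16:31145117-31145176 and CCL5 probe 3 at chr16:31145149-31151617, both on the minus strand. CCL3 has near-identical gene copies in primates, so the CCL3 values may hold signal of such copies.
CCL3 probe 1: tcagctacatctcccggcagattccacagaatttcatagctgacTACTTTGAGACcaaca
CCL3 probe 2: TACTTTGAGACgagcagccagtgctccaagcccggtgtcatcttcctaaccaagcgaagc
CCL5 probe 1: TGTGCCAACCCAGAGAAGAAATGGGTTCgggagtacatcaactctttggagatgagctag
CCL5 probe 3: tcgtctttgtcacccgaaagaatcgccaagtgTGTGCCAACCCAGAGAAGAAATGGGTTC

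Values below are log2 of the scanner's processed signal after each array was shifted to a median array. A difference of 1 is a doubling, and levels of different probes are not comparable. The share of probes well above background was 49.6% to 53.1% before irradiation, 53.9% to 57.6% on day 3, 51.0% to 61.2% on day 5 and 48.3% to 60.9% on day 7. The dimmest arrays were replicate 2 of day 7, with a median processed signal of 16.8, and replicate 2 of day 5, with 30.5. The arrays were scanned in 2 sessions. The first held 6 pre-irradiation and 6 day 7 arrays, and the second held all of days 3 and 5 with 1 pre-irradiation array and 1 day 7 array (replicate 5 of each). Comparisons of days 3 and 5 with the pre-irradiation group therefore rest on a single array for their within-session value, whereas day 7 can be compared within the first session.

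Against the pre-irradiation group, the called members were TNF and CXCL16 on day 3 and TNF and CXCL10 on day 5, all higher, and none on day 7. A member gene is counted by its brightest probe, and it is called at an adjusted p under 0.005, the threshold of the study, in limma with Benjamini-Hochberg adjustment over all tested probes, which were 27133, or 27127 where day 3 was compared. On day 3, 2 of 7 genes were called (3 of 13 probes, the added one being CXCL10 probe 2), where 13.5% of all probes were called and 5.43% were called higher. On day 5, 2 of 7 genes (3 of 13 probes) were called, beside 16.7% of all probes and 7.15% called higher. On day 7, 0 of 7 genes were called by limma, beside 10.9% of all probes called and 3.6% called higher, and 2 of 7 genes (7 of 13 probes) had an unadjusted p under 0.05, beside 39.5% of all probes. The median log2 difference of the 7 brightest probes was 1.24 on day 3, 0.99 on day 5 and 0.51 on day 7, and that of all 13 tested member probes 0.54, 0.58 and 0.51, beside 0.02 over all tested probes on each day. The brightest-probe medians of days 3 and 5 are the values of TNF and CXCL1. Fitted differences lay above 0 for 7, 6 and 5 of the 7 genes and 12, 10 and 8 of the 13 probes on days 3, 5 and 7, beside 50.8%, 51.4% and 51.2% of all probes. TNF, CXCL1 and CXCL10 probe 2 were well above background on 1, 2 and 1 of 7 pre-irradiation arrays and passed the filter on dim probes through the later groups, so these counts and medians describe the tested probes only, and the differences of these 3 probes are fitted against values mostly not above background.

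**Figure D1:**
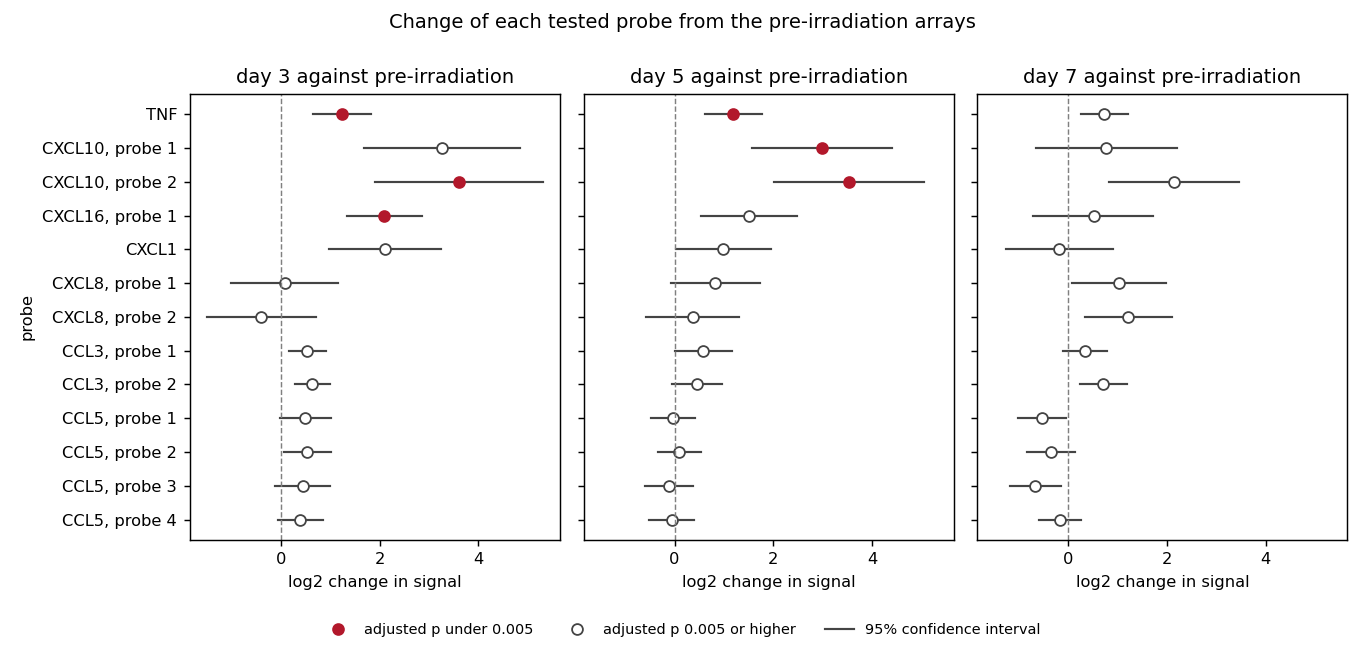
Log2 difference from the pre-irradiation group (x axis) for the 13 tested probes (y axis) on day 3 (4 against 7 arrays), day 5 (6 against 7) and day 7 (7 against 7). Points are limma estimates with 95% confidence intervals, and filled red points have an adjusted p under 0.005. Red points are TNF, CXCL16 and CXCL10 probe 2 on day 3, TNF and both CXCL10 probes on day 5, and none on day 7.

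TNF was higher on days 3 and 5 than before irradiation, by fitted folds of 2.36 and 2.29 against a group in which 1 of 7 arrays was well above background. Before irradiation its 7 values ran from 5.21 through a median of 5.79 to 6.10, and only replicate 5, the highest, was well above background. On day 3 the values were 7.54, 6.10, 7.03 and 7.00 for replicates 1, 2, 4 and 7, all well above background. Replicate 2 was level with the highest pre-irradiation array, and the other 3 lay above all of them. The difference was 1.24 ± 0.26 (log2, SE; 95% confidence interval 0.66 to 1.82; limma adjusted p = 0.00431), and it was positive in 4 of 4 animals, by 0.89 to 1.67. On day 5 TNF ran from 6.01 through 7.15 to 7.55. The 2 lowest arrays, replicates 2 and 4, lay within the pre-irradiation range and the other 4 above it. The difference was 1.19 ± 0.27 (limma adjusted p = 0.00424), positive in 6 of 6 animals by 0.51 to 2.19. On day 7 TNF ran from 5.74 through 6.48 to 7.13, with 5 of 7 arrays above the pre-irradiation range. The difference of 0.73 ± 0.23 did not pass (limma adjusted p = 0.0258), although it was positive in 7 of 7 animals.

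Both TNF calls lay close to the threshold. On day 3 TNF was no longer called without replicate 1, 3, 4, 6 or 7 (limma adjusted p = 0.0224, 0.00962, 0.0295, 0.00686 and 0.0169), and on day 5 without replicate 1, 3, 6 or 7 (0.0179, 0.0209, 0.0157 and 0.016). Without pre-irradiation replicate 7 alone the TNF adjusted p was 0.00661 on day 3 and 0.00648 on day 5, without a filter on dim probes it was 0.00675 and 0.00746, and with quantile normalization 0.00865 and 0.0072. With background correction by normexp, which compresses dim signals, the TNF difference was 0.57 on day 3 and 0.73 on day 5 and was not called, and with scan session as a block it was 0.81 and 0.77 and was not called. On day 3 TNF was also lost with slide as a block (0.91, adjusted p = 0.393) and in a single fit of all 4 groups (adjusted p = 0.00506). Pairing each array with its own animal gave 1.29 (adjusted p = 0.00982, no longer called) on day 3, where that fit called 1.21% of all probes higher, and 1.26 (adjusted p = 0.00342) on day 5, where it called 6.09% higher.

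**Figure D2:**
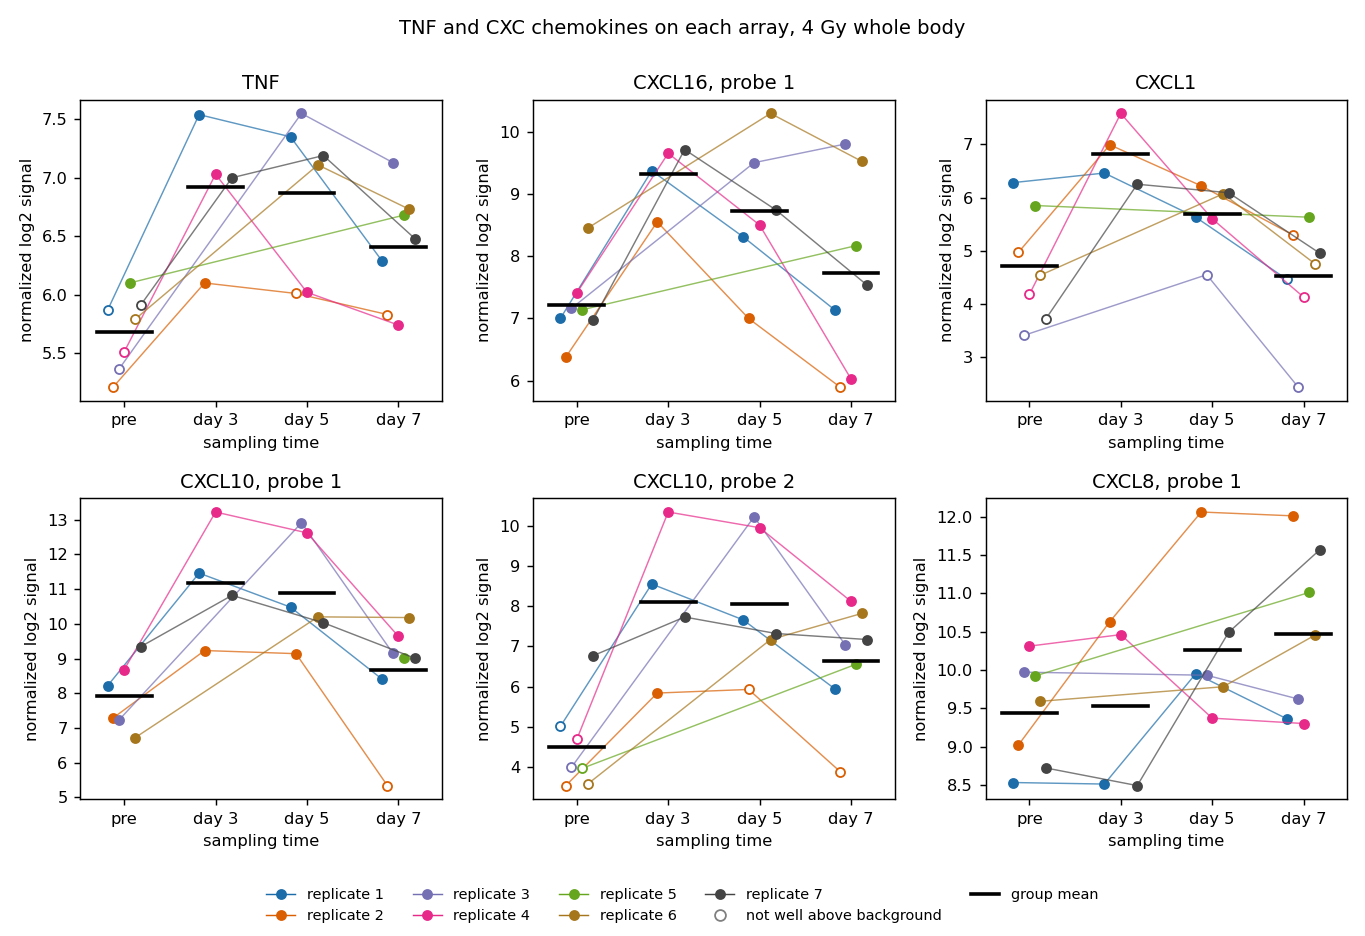
Normalized log2 signal (y axis) of TNF, CXCL16 probe 1, CXCL1, CXCL10 probes 1 and 2 and CXCL8 probe 1 by sampling time (x axis: pre-irradiation, days 3, 5 and 7). Each point is 1 array, lines join arrays of the same replicate number, hollow points were not well above background, and black bars are group means. The means of CXCL16, 7.22 before irradiation, 9.32 on day 3, 8.72 on day 5 and 7.73 on day 7, show the order seen in the panel, and all 4 day 3 arrays of CXCL16 lie above every pre-irradiation array.

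CXCL16 was 4.29 times higher on day 3 than before irradiation. Before irradiation CXCL16 probe 1 ran from 6.38 through 7.14 to 8.45, replicate 6 being the highest. On day 3 its values were 9.37, 8.55, 9.65 and 9.71 for replicates 1, 2, 4 and 7. The groups did not overlap, a pattern that 8.66% of all tested probes showed in this direction. The difference was 2.10 ± 0.35 (limma adjusted p = 0.00115; 95% confidence interval 1.35 to 2.86), and the paired differences of the 4 animals ran from 2.16 to 2.74. The call was lost without replicate 1, 4 or 7 (adjusted p = 0.00849, 0.0101 and 0.0083), with normexp (1.29, adjusted p = 0.0324), in a single fit of all 4 groups (adjusted p = 0.0148), and with slide or scan session as a block (2.54, adjusted p = 0.0895, and 2.18, adjusted p = 0.087). Paired by animal it was 2.38 (adjusted p = 0.00175).

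On day 5 CXCL16 ran from 7.00 through 8.62 to 10.29, overlapping the pre-irradiation range, and its difference of 1.51 ± 0.45 was not called (limma adjusted p = 0.0181). It was positive in 6 of 6 animals, and paired by animal it was called (1.49, adjusted p = 0.00207). On day 7 the values spread from 5.90 to 9.80 around a median of 7.53, replicates 3 (9.80) and 6 (9.52) standing highest, and the difference was 0.51 ± 0.57 (limma adjusted p = 0.539). The SD of CXCL16 was 0.63 before irradiation (n = 7) and 1.54 on day 7 (n = 7). CXCL16 probe 2 was well above background on 0 of 24 arrays, with values from 2.22 to 4.14, so it bears on none of these differences.

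CXCL10 gave the highest fold differences among the tested members, and the widest spread between animals. For CXCL10 probe 1 the spot of pre-irradiation replicate 5 was an outlier spot and was left out, and the other 6 pre-irradiation values ran from 6.72 through 7.76 to 9.34, replicate 7 being the highest. On day 3 they were 11.46, 9.23, 13.22 and 10.82 for replicates 1, 2, 4 and 7. The 3 arrays other than replicate 2 lay above the pre-irradiation range. The difference was 3.27 ± 0.72, which is 9.63 times, and it fell short of the threshold (limma adjusted p = 0.0058). On day 5 CXCL10 probe 1 read 10.48, 9.14, 12.91, 12.62, 10.20 and 10.03 for replicates 1, 2, 3, 4, 6 and 7. All but replicate 2 lay above the pre-irradiation range, and replicates 3 and 4 stood apart from the rest of day 5. The difference was 2.99 ± 0.66, which is 7.92 times (limma adjusted p = 0.00381; 95% confidence interval 1.56 to 4.41), positive in 6 of 6 animals by 0.70 to 5.69. On day 7 the values were 8.41, 5.34, 9.15, 9.64, 9.02, 10.18 and 9.01 for replicates 1 to 7. Replicate 2, the dimmest array, was not well above background, and the group overlapped the pre-irradiation range. The difference was 0.77 ± 0.67 (limma adjusted p = 0.421).

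The second CXCL10 probe is dimmer and was well above background in only 1 of 7 pre-irradiation arrays, replicate 7 at 6.77, the others reaching down to 3.54. It read 8.55, 5.84, 10.34 and 7.73 on day 3 and ran from 5.93 through 7.49 to 10.22 on day 5 and from 3.89 through 7.03 to 8.12 on day 7. All 4 day 3 arrays but replicate 2 lay above the pre-irradiation range, which replicate 7 alone extended. Its fitted differences, against that mostly undetected group, were 3.60 ± 0.78 on day 3 (limma adjusted p = 0.0047), 3.53 ± 0.71 on day 5 (adjusted p = 0.00173) and 2.14 ± 0.62 on day 7 (adjusted p = 0.0187), the last positive in 7 of 7 animals. Over the arrays both probes measured, they correlated at 0.95. On day 7 they differed, 0.77 against 2.14, and in the authors' deposited value table CXCL10 probe 2 was called on day 7 (2.63, adjusted p = 0.000987), whereas with normexp it was 0.61 (adjusted p = 0.412).

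Which CXCL10 probe was called depended on small changes. On day 3 CXCL10 probe 1 was called when outlier spots were kept (adjusted p = 0.00451), under a filter of 12 arrays (0.00463) and in the authors' value table (0.00311). CXCL10 probe 2 was lost on day 3 without any 1 of replicates 1, 3, 4, 5, 6 or 7 (limma adjusted p = 0.00572 to 0.0264), and on day 5 without replicate 1, 3, 4 or 6 (0.00545 to 0.00796). Paired by animal, CXCL10 probe 2 was 3.11 on day 3 (adjusted p = 0.0215) and 3.44 on day 5 (adjusted p = 0.00552), and with normexp 1.63 (adjusted p = 0.0717) and 1.66 (adjusted p = 0.0294). With scan session as a block CXCL10 probe 2 was 4.14 on day 3 (adjusted p = 0.133) and 4.07 on day 5 (adjusted p = 0.109), and with slide as a block 5.06 on day 3 (adjusted p = 0.112). Its day 3 call was also lost with quantile normalization (adjusted p = 0.00627), without a filter (0.0078) and with sex as a covariate (0.00727). In all, the day 3 call of CXCL10 probe 2 held in 7 of 21 alternatives. On day 5 CXCL10 probe 1 was lost without replicate 1, 2, 3, 4 or 6 (adjusted p = 0.013, 0.00589, 0.0159, 0.0102 and 0.0119), in the fit paired by animal, where it was 2.99 (adjusted p = 0.00536), with normexp (2.07, adjusted p = 0.0557) and without a filter (adjusted p = 0.00578). Because its replicate 5 spot was left out, no value of CXCL10 probe 1 with scan session as a block exists on days 3 and 5. None with slide as a block exists on day 3.

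The other CXCR3 ligands were at the detection limit. CXCL9 was well above background on 3 of 24 arrays, at 6.65 in pre-irradiation replicate 7, 5.17 in day 5 replicate 3 and 8.74 in day 7 replicate 4. CXCL11 was so on 2 of 24, day 5 replicates 3 and 4, at 5.80 and 4.63. Day 5 replicates 3 and 4 were also the arrays with the highest day 5 values of CXCL10 probe 1, and pre-irradiation replicate 7 had the highest CXCL10 of its group. Day 7 replicate 4, with the highest CXCL9, was at 9.64 for CXCL10 probe 1, below replicate 6 at 10.18, where CXCL9 was 2.29 and not well above background. Neither gene was tested.

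**Figure D3:**
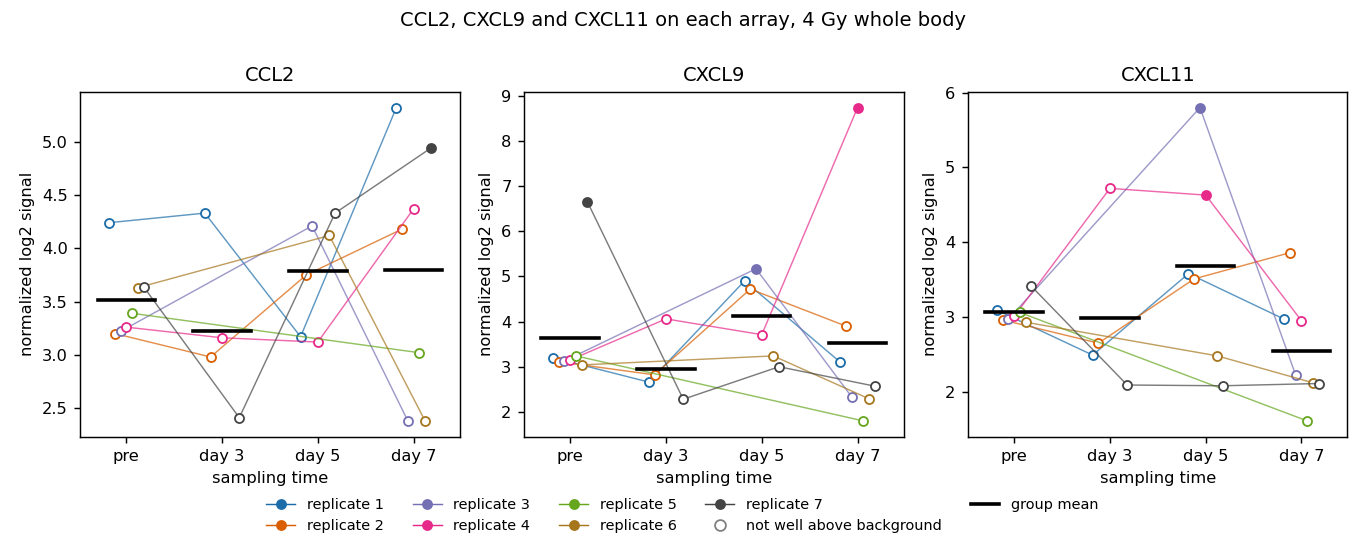
Normalized log2 signal (y axis) of CCL2, CXCL9 and CXCL11, the members with no tested probe, by sampling time (x axis). Points are single arrays and hollow points were not well above background, so their height is no measured level of the gene. Filled points are 1 array for CCL2 (day 7), 3 for CXCL9 and 2 for CXCL11 (both day 5).

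CXCL1 had its highest values on day 3. Before irradiation it ran from 3.41 through 4.54 to 6.28, and 2 of 7 arrays were well above background, replicates 1 (6.28) and 5 (5.85). On day 3 it read 6.46, 6.99, 7.58 and 6.25 for replicates 1, 2, 4 and 7, all well above background. Replicate 7 lay just under the highest pre-irradiation array and the other 3 above it. The difference of 2.11 ± 0.52, which is 4.32 times, was not called (limma adjusted p = 0.00899). It was called in 1 alternative, a single fit of all 4 groups (adjusted p = 0.00424), and with normexp it was 0.58. On day 5 CXCL1 ran from 4.55 through 5.85 to 6.22, within the pre-irradiation range, with a difference of 0.99 ± 0.45 (adjusted p = 0.102), which was -0.15 with scan session as a block (adjusted p = 0.943). On day 7 it ran from 2.44 through 4.76 to 5.63, with 2 of 7 arrays well above background and a difference of -0.18 (adjusted p = 0.823).

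CXCL8, the other neutrophil attractant, was well above background on all 24 arrays and was called on no day. Its probe 1 ran from 8.53 through 9.59 to 10.31 before irradiation. On day 3 CXCL8 probe 1 read 8.51, 10.63, 10.46 and 8.49 for replicates 1, 2, 4 and 7. The animals split into 2 high and 2 low values, and the difference was 0.08 ± 0.49 (limma adjusted p = 0.911). On day 5 it ran from 9.37 through 9.94 to 12.06 and on day 7 from 9.30 through 10.45 to 12.01, replicate 2 being the highest on both days. The differences were 0.82 ± 0.42 (adjusted p = 0.138) and 1.03 ± 0.45 (adjusted p = 0.0974), and on day 7 the difference was positive in 5 of 7 animals. CXCL8 probe 2 gave -0.39, 0.37 and 1.21 on days 3, 5 and 7, with limma adjusted p = 0.572, 0.544 and 0.0408, and on day 7 it was positive in 6 of 7 animals. Leaving out 1 replicate gave day 5 differences from 0.39 to 1.15 for probe 1 and from -0.09 to 0.73 for probe 2. Replicate 2 of days 5 and 7, the arrays with the highest CXCL8, were also the dimmest arrays of the series, and the part of array brightness in those values was not tested.

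**Figure D4:**
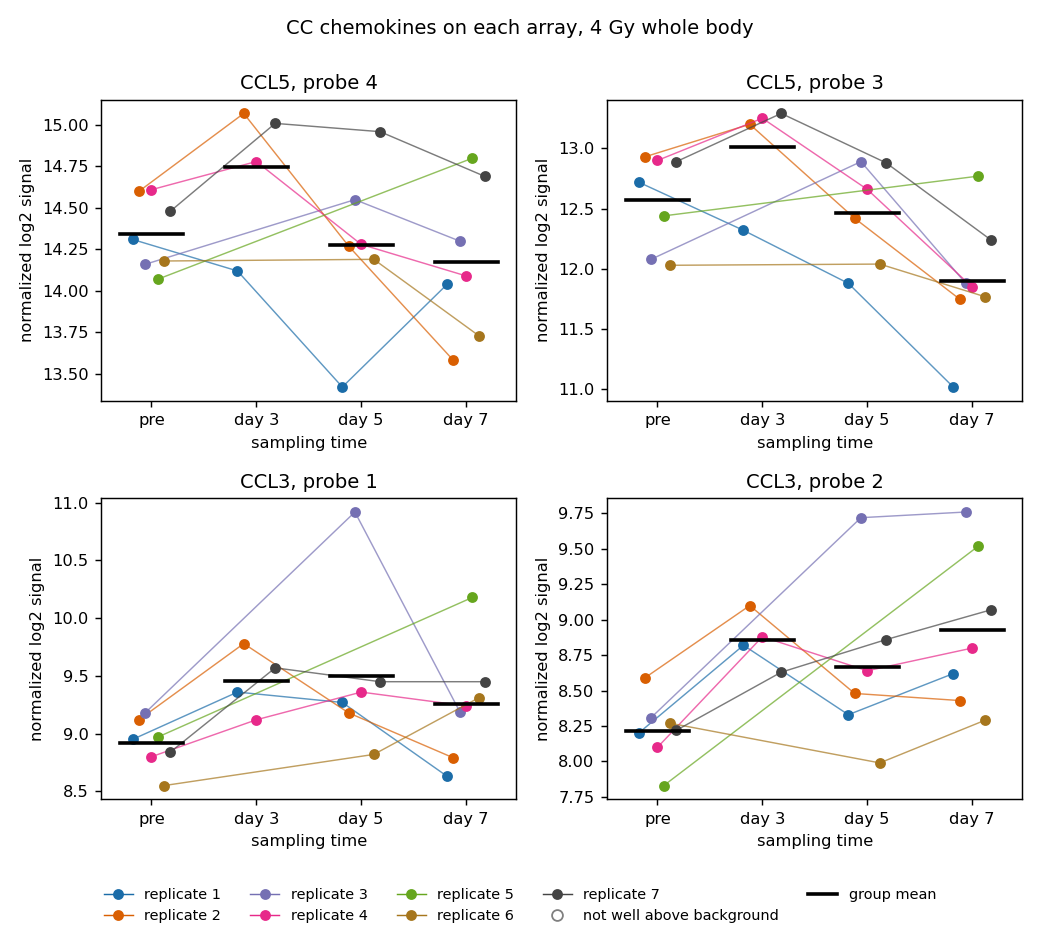
Normalized log2 signal (y axis) of CCL5 probes 4 and 3 and CCL3 probes 1 and 2 by sampling time (x axis). Points are single arrays, lines join arrays of the same replicate number and black bars are group means. In the panel of CCL3 probe 2, the 4 day 3 arrays, from 8.63 to 9.10, lie above all pre-irradiation arrays, from 7.83 to 8.59.

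CCL3 (MIP-1 alpha) was well above background on all arrays with both probes, and its differences were small and not called. CCL3 probe 1 ran from 8.55 through 8.95 to 9.18 before irradiation and read 9.36, 9.78, 9.12 and 9.57 on day 3. All but replicate 4 were above the pre-irradiation range. CCL3 probe 2 ran from 7.83 through 8.22 to 8.59 before irradiation and read 8.82, 9.10, 8.88 and 8.63 on day 3, where the groups did not overlap, as for 8.66% of all tested probes. The day 3 differences were 0.54 ± 0.17 for probe 1 (limma adjusted p = 0.0293) and 0.64 ± 0.17 for probe 2 (adjusted p = 0.0114). On day 5 CCL3 probe 1 differed by 0.58 ± 0.27 (adjusted p = 0.112), with replicate 3 at 10.92 and the other arrays from 8.82 to 9.45, and it was positive in 6 of 6 animals. On day 7 CCL3 probe 2 differed by 0.71 ± 0.23 (limma adjusted p = 0.0297) and CCL3 probe 1 by 0.34 (adjusted p = 0.245).

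CCL5 (RANTES), made by T cells and NK cells and stored in platelets, was a bright signal that was called on no day. Its brightest probe, CCL5 probe 4, ran from 14.07 through 14.31 to 14.61 before irradiation. On day 3 it read 14.12, 15.07, 14.78 and 15.01 for replicates 1, 2, 4 and 7. Replicate 1 lay inside the pre-irradiation range and the other 3 above it. CCL5 probe 3 showed the same split, with 12.32 in replicate 1 and 13.20, 13.25 and 13.29 in replicates 2, 4 and 7, after 12.03 to 12.93 before irradiation. The day 3 differences of CCL5 probes 1 to 4 were 0.50, 0.54, 0.45 and 0.40 (limma adjusted p = 0.118, 0.0712, 0.188 and 0.146). On day 5 the 4 probes lay between -0.11 and 0.10. Over the alternative fits their day 5 values ran from -0.5 to 0.21, -0.41 to 0.26, -0.51 to 0.03 and -0.69 to 0.21, and none was called. On day 7 the differences were -0.54, -0.35, -0.67 and -0.17 (adjusted p = 0.0919, 0.275, 0.0516 and 0.563). CCL5 probe 5 was well above background on day 7 replicate 3 alone, at 5.26.

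CCL2 (MCP-1), the main attractant of classical monocytes, could not be followed in these arrays. It was well above background on 1 of 24 arrays, day 7 replicate 7 at 4.94. Its pre-irradiation values ran from 3.20 to 4.24, and those of day 7 from 2.38 to 5.32, below and around background.

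Between the days after irradiation no member was called by limma. For day 5 against day 3, 1 of 7 genes had an unadjusted p under 0.05, for day 7 against day 3 this held for 3 of 7, and for day 7 against day 5 for 2 of 7, beside 10.1%, 32.7% and 20.8% of all probes. At the adjusted threshold 0.0184%, 1.26% and 0.00369% of all probes were called. All day 3 and day 5 arrays were in the second scan session and 6 of 7 day 7 arrays in the first, so the differences of day 7 from those days rest on 1 day 7 array for their within-session value. CXCL1 came nearest. All 7 day 7 arrays and all 6 day 5 arrays of CXCL1 lay below every day 3 array, where 6.27% and 2.13% of all probes showed such a separation downwards. CXCL1, well above background on 2 of 7 day 7 arrays, differed from day 3 by a fitted -2.29 ± 0.51 on day 7 (limma adjusted p = 0.0139) and by -1.13 on day 5 (adjusted p = 0.289). In a single fit of all 4 groups the day 7 difference of CXCL1 was called (adjusted p = 0.00388), whereas it was -0.74 with normexp (adjusted p = 0.753), -1.28 with slide as a block (adjusted p = 0.847) and -1.19 with scan session as a block (adjusted p = 0.699).

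Other members had lower values on day 7 than on day 3 without passing the test. CXCL10 probe 1 differed by -2.50 (limma adjusted p = 0.0693), CXCL10 probe 2 by -1.46 (adjusted p = 0.26) and CXCL16 by -1.59 (adjusted p = 0.143). CCL5 probes 1 to 4 differed by -1.03, -0.89, -1.12 and -0.57 (adjusted p = 0.0333, 0.0608, 0.0308 and 0.182), and all 4 were lower in 4 of 4 animals. TNF differed by -0.51 (adjusted p = 0.293), and from day 5 to day 7 it was lower in 6 of 6 animals, with paired differences from -1.06 to -0.18, and the unpaired difference of the groups was -0.46 (adjusted p = 0.423). With scan session as a block the differences of day 7 from day 3 were -2.16 for CXCL10 probe 1, -1.15 for CXCL16, -0.24, -0.10, -0.25 and 0.06 for CCL5 probes 1 to 4 and -0.24 for TNF, and with normexp that of CXCL16 was -0.73. Paired by animal, CXCL10 probe 1 differed by -3.08 (adjusted p = 0.00744) and CXCL16 by -2.67 (adjusted p = 0.00697). CXCL8 went the other way from day 3 to day 7, by 0.95 for probe 1 (adjusted p = 0.309) and 1.60 for probe 2 (adjusted p = 0.0888).

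Day 7 against pre-irradiation was also fitted on the 6 arrays of each group from the first scan session. There TNF differed by 0.76 (limma adjusted p = 0.0423), CXCL16 by 0.42 (adjusted p = 0.682) and CXCL1 by -0.18 (adjusted p = 0.838). Probes 1 and 2 differed by 0.71 and 2.07 for CXCL10 (adjusted p = 0.511 and 0.0525), by 1.03 and 1.17 for CXCL8 (adjusted p = 0.16 and 0.095) and by 0.19 and 0.55 for CCL3 (adjusted p = 0.478 and 0.108). CCL5 probes 1 to 4 differed by -0.71, -0.51, -0.84 and -0.32 (adjusted p = 0.0353, 0.121, 0.0233 and 0.273). None of these was called, as in the whole groups.

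Genes around the members were taken from lists. Beside the list counts here and below, 13.5%, 16.7% and 10.9% of all tested probes were called on days 3, 5 and 7. Those called higher were 5.43%, 7.15% and 3.6%. A count of 1 gene on a list is close to such a share. Of 36 other chemokine ligands, 29 had a probe and 16 were tested, with 5 higher and 1 lower on day 3, 1 higher and 2 lower on day 5, and 0 higher and 2 lower on day 7. Their median difference was 0.80, 0.39 and -0.05. On day 3 the platelet chemokine PPBP rose 8.36 times (limma adjusted p = 0.000206), the neutrophil attractant CXCL3 rose 4.57 times (adjusted p = 0.000801), and CCL23, a monocyte attractant, was at least 6.19 times higher (adjusted p = 0.00315). "At least" marks a fold against a group with no array well above background, taken against the lowest signal that was. CCL23 was well above background in 0 of 7 pre-irradiation arrays, 3 of 4 day 3 arrays and 5 of 6 day 5 arrays. It passed the filter on dim probes only through the later groups. Its day 3 values ran from 4.28 to 11.34, so the bound holds for the group mean and not for every array. CCL1, a ligand of CCR8, fell by 3.65, 4.71 and 3.89 (log2) on days 3, 5 and 7 (adjusted p = 0.000231, 1.62e-05 and 0.00125), and 4 of 4, 2 of 6 and 3 of 7 arrays of those days were well above its background. On day 5 CCL23 was at least 1.91 times higher (adjusted p = 0.00048) and XCL1, a lymphocyte chemokine, fell by 1.43 (adjusted p = 0.0014). CCL21, which guides T cells to lymph nodes, fell by 1.67 on day 7 (adjusted p = 0.00376), being well above background on 2 of 7 arrays then and 4 of 7 before irradiation. Of the 5 ligands higher on day 3, 3 were the platelet genes PPBP, PF4 and PF4V1. From day 3 to day 7 these fell by 3.01, 2.98 and 2.88 and CXCL3 fell by 2.34 (adjusted p = 0.00126, 0.00302, 0.00126 and 0.00372).

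All 14 genes on the list of the members' receptors, which holds both TNF receptors and the atypical receptors that take up chemokines, were tested. There were 0 higher and 1 lower on day 3, 1 higher and 2 lower on day 5, and 0 higher and 2 lower on day 7. Of all tested probes, 13.5%, 16.7% and 10.9% were called in either direction on those days. The scavenging receptor ACKR2 was at least 7.65 times lower on day 3 (limma adjusted p = 3.11e-05) and lower on days 5 and 7, by fitted log2 differences of -3.69 and -3.31, where 1 of 6 and 2 of 7 arrays were well above background. ACKR1, the red cell chemokine receptor, fell by 3.78 on day 5 (adjusted p = 0.00107) and by 3.48 on day 7 (adjusted p = 0.00137). CCRL2, an atypical receptor of activated leukocytes on this list, rose 3.25 times on day 5 (adjusted p = 0.00409), and its binding of the members was not examined. The receptors of the called members were not called on day 3, 5 or 7. Their values are given for day 3 only, although CXCL10 as a gene was called on day 5 and not on day 3. On day 3 CXCR6, of CXCL16, differed by -2.08 (adjusted p = 0.00865) and CXCR3, of CXCL10, by -0.49 (adjusted p = 0.0884). TNFRSF1A differed by 1.0 (adjusted p = 0.0332) and TNFRSF1B by 0.48 (adjusted p = 0.0523).

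Of 17 genes of TNF release and signalling, 16 were tested, with 4 higher and 1 lower on day 3, 4 higher and 0 lower on day 5 and 1 higher and 0 lower on day 7. ADAM17 rose by 1.06 on day 3 and 0.88 on day 5 (log2). BIRC3, an inhibitor of apoptosis in TNF signalling, was the 1 gene lower on day 3, where it fell by 1.48. RHBDF2, which carries ADAM17 to the surface, rose by 1.71, 1.62 and 1.23 on days 3, 5 and 7 (limma adjusted p = 0.00208, 0.000191 and 0.000587). TIMP3, an inhibitor of ADAM17, rose by 2.07 on day 3 (adjusted p = 0.000999), and CFLAR, an inhibitor of caspase-8, by 1.13 on day 5 (adjusted p = 0.00166). TNFAIP2, a gene induced by TNF, was at least 2.10 times higher on day 3 (adjusted p = 0.00064) and at least 1.47 times on day 5 (adjusted p = 0.000638). TNFAIP2 was well above background on 0 of 7 pre-irradiation, 4 of 4 day 3 and 4 of 6 day 5 arrays. Of the other ligands of the TNF superfamily, 14 of 17 were tested, and 1, 1 and 2 were higher on days 3, 5 and 7 with 0 lower. Beside the counts of both lists, 5.43%, 7.15% and 3.6% of all tested probes were called higher on those days. TNFSF13 (APRIL) rose by 1.44 on day 3, and TNFSF4 (OX40 ligand) by 0.90 on day 5 and 1.08 on day 7. CD70, the ligand of CD27, was at least 3.05 times higher on day 7 (adjusted p = 0.000225). CD70 was well above background on 0 of 7 pre-irradiation and 6 of 7 day 7 arrays. TNFAIP2 and CD70 passed the filter on dim probes only through the later groups, so the filter favoured their calls.

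Of 14 genes of the interferon gamma axis, which controls CXCL9, CXCL10 and CXCL11, 11 were tested. On days 3, 5 and 7, 1, 2 and 1 of them were higher and 0 lower, with median differences of 1.02, 0.99 and 0.48. Of all tested probes, 5.43%, 7.15% and 3.6% were called higher on those days. JAK2 rose by 1.02 on day 3 (limma adjusted p = 0.00382). On day 5 CD274 (PD-L1) rose 6.54 times (adjusted p = 0.000856) and the transcription factor IRF1 by 1.17 (adjusted p = 0.000841). JAK1 rose by 1.10 on day 7 (adjusted p = 0.00459). IFNG itself was not called on day 3, 5 or 7, and it differed by -0.07 on day 3 (adjusted p = 0.893).

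Markers of blood cell types moved with time as well. The summed level of a list is given as the mean log2 signal over its tested probes, by its range over arrays. Platelet markers (6 of 6 tested) ran from 10.13 to 11.55 before irradiation and from 13.37 to 14.38 on day 3, with 6 of 6 higher on day 3. Classical monocyte markers (5 of 7 tested, all well above background on every array) ran from 13.46 to 14.15 before irradiation, 14.27 to 14.79 on day 3, 13.98 to 14.67 on day 5 and 13.57 to 14.74 on day 7, with 1 of 5 higher on days 3 and 5. B cell markers ran from 11.55 to 12.03 before irradiation and from 7.67 to 9.19 on day 3, and 5 of 5 were lower on each day. Erythroid markers were lower for 4, 5 and 5 of 5 on days 3, 5 and 7. No T cell (5) or NK cell (7) marker was called, and neutrophil markers gave 1 of 6 higher on days 3 and 5.

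Across all 24 arrays, which share animals and sampling days, TNF correlated with the monocyte markers at r = 0.67 and CXCL16 at 0.52, CXCL1 with the platelet markers at 0.78, CCL5 with the NK cell markers at 0.75, CCL3 with them at 0.58, and CXCL8 with the neutrophil markers at 0.49. CXCL10 correlated with the platelet markers at 0.45 over 23 arrays. These are the highest positive values of each member over 7 marker lists. TNF and CXCL1 were well above background on 16 and 13 of the 24 arrays, so their correlations rest partly on values that are no measured levels. For some members negative values reached a similar size, as TNF with erythroid markers at -0.66 and B cell markers at -0.57, and CXCL16 and CXCL10 with erythroid markers at -0.47 each, whereas the lowest value of CCL5 was -0.20, of CCL3 -0.33 and of CXCL1 -0.47. The part of cell numbers in the differences of these members was not tested. Between members, TNF and CXCL16 correlated at 0.79, TNF and CXCL10 at 0.67 and CXCL10 and CXCL16 at 0.65, and after group means were removed at 0.69, 0.39 and 0.41.

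The genes whose pattern over the arrays was most like each member were ranked by Pearson's r among 9528 genes, or 9531 for CXCL10. For TNF these were MAPKAPK3 (r = 0.90), SH3BP2 (0.89) and RENBP (0.89), and for CXCL16 they were CD180 (0.95), LTA4H (0.93) and SELENOP (0.92). For CXCL10, over 23 arrays, they were PDCD1LG2 (0.94), WARS (0.93) and SMPDL3A (0.93). For CXCL1 they were CXCL3 (0.88), GSN (0.85) and ARHGAP21 (0.84), and for CCL5 CMA1 (0.83), ALOX12 (0.76) and NCR3 (0.76). The nearest to CXCL8, MYSM1 (0.74), SNX18 (0.72) and OLR1 (0.72), and to CCL3, ARFIP1 (0.69), PRF1 (0.67) and KIR3DL12 (0.67), were less alike. With group means removed, CD180 and CXCL16 correlated at 0.93 and PDCD1LG2 and CXCL10 at 0.91. By the same measure MAPKAPK3 and TNF correlated at 0.79, and CXCL3, GSN and ARHGAP21 with CXCL1 at 0.74, 0.66 and 0.66. Values of TNF and CXCL1 that were not well above background were used as they stood.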

How the data were processed

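Whole blood RNA was hybridised to 24 one-colour arrays. The deposited scanner files hold the intensity of each spot, from Feature Extraction 12.0.2.2 per the file headers. The authors' deposited value table holds log2 processed signals (lowest correlation with the scanner files over arrays 0.99997) and was used as an alternative. The authors normalized arrays to a median array and tested each day against pre-irradiation at a false discovery rate of 0.005.

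Control spots and outlier spots were left out, spots of a probe averaged, log2 processed signals shifted to the median array (pre-irradiation replicate 2), and and 27133 of 43603 probes kept, those that the scanner called well above background 4 times or more among the 24 arrays. Each pair of groups was fitted with limma 3.58.1 (R 4.3.3), without a block, with Benjamini-Hochberg adjustment over all tested probes. A gene's brightest probe stood for it. Intervals and p-values of the fit without a block both rest on the spread between arrays within the groups. That fit does not use which arrays share an animal. Groups held only 4 to 7 arrays, so the fitted differences are imprecise.

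Replicate numbers, taken to mark animals, deviated together (lowest same-number correlation 0.129), so the paired fit was an alternative. Other alternatives were quantile normalization, normexp (offset 50), no filter, a filter of 12 arrays, outlier spots kept, a fit of all groups, slide, session or sex as terms, and leaving out each replicate. Leaving out pre-irradiation replicate 5 or 7 was chosen after seeing the data. Members and lists were chosen with earlier results of these data known. From each list the text names up to 3 called genes a day, those with the largest change. The receptors of called members, IFNG, CXCL3, PF4, PF4V1, BIRC3 and ADAM17 were named outside this rule, after their values were seen. Genes most like a member were the 3 with the highest correlation. The sources differ on the array design and on the radiation source. Python 3.11.15 drew the figures with matplotlib 3.10.9. Sequences are those of the probes in the deposited scanner files.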

Additional observations from a re-analysis of the deposited data

Results flagged for a closer look

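In groups of 4 to 7 arrays, 10 of 72 groups held 1 array far from the others by Dixon's ratio, where chance marks about 1 in 20 groups. That rate is for independent groups. These groups share arrays, and some hold overlapping probes or probes too dim to test, so the count cannot show an excess. CXCL10 probe 1 read 5.34 in day 7 replicate 2, the dimmest array, and 8.41 to 10.18 in the others. CCL3 probe 1 read 10.92 in day 5 replicate 3 and 8.82 to 9.45 in the others. CXCL1 read 4.55 in the same day 5 replicate 3 and 5.60 to 6.22 in the others. CCL5 probes 1, 2 and 3 read 12.3, 12.51 and 12.32 in day 3 replicate 1, and no less than 13.06, 13.31 and 13.20 in the other day 3 arrays. Probe 1 of these overlaps in sequence with probe 2 and with probe 3. CCL2 read 4.24 in pre-irradiation replicate 1 and 3.20 to 3.64 in the others, all below the background limit. CXCL9 read 6.65 in pre-irradiation replicate 7 (others 3.04 to 3.24) and 8.74 in day 7 replicate 4 (others 1.80 to 3.90). CXCL11 read 3.41 in pre-irradiation replicate 7 (others 2.93 to 3.09), below the background limit.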

How the results depend on the processing

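No difference of a single member probe changed direction while called. On day 3 the count of called member genes (2 as reported) was 3 under a filter of 12 arrays, with outlier spots kept and in the authors' value table. CXCL10 was the added gene. The count was 1, CXCL16, with quantile normalization, without a filter and without pre-irradiation replicate 7. A single fit of all groups also gave 1, but that was CXCL1, and both reported genes were lost. It was 0 with normexp. With slide or scan session as a block it was 0 of 6 genes, since CXCL10 probe 1 has no value there. Leaving out 1 replicate gave 0 to 2. On day 5 (2 as reported) it was 1, CXCL10, with quantile normalization, and 0 with normexp or without a filter. With session as a block it was 0 of 6 genes, and without pre-irradiation replicate 7 it was 1. Leaving out 1 replicate on day 5 gave 0 to 2. For day 7 against day 3 (0 as reported) a single fit of all groups gave 1, CXCL1. With the replicate number as a block (pairing by animal) the day 3 count was 1, CXCL16, and the day 5 count 2, then TNF and CXCL16. The share of all probes called under that block was 2.77% on day 3, 15.4% on day 5 and 8.57% on day 7. Of the values of single probes, 7 gained a call and 58 lost it under an alternative, and 1486 stayed on their side of the threshold. The causes were not tested. Days 3 and 5 share 1 pre-irradiation array with their scan session, so the session and slide blocks rest on few arrays. TNF, CXCL10 probe 2 and CXCL1 were near background before irradiation.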
